A study of Arabidopsis thaliana with 12 samples.

Results

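Mature leaves of *rtnlb16-1* were compared with those of wild-type Col-0 after growth under continuous low light (CLL), over all annotated genes. The comparison takes 6 of the 12 RNA-seq libraries of the study, 3 from Col-0 (65, 66 and 67) and 3 from *rtnlb16-1* (68, 69 and 70), and the libraries were chosen by the genotype and light regime in their labels. The other 6 libraries come from the same genotypes under long days (LD) and share the estimate of the spread in the fit. Their levels enter only where a CLL value is set beside its LD value. *rtnlb16-1* is the line Salk_122275 in the Col-0 background, 1 T-DNA allele, in which a T-DNA concatemer with a CaMV35S enhancer sits at *RTNLB16* on chromosome 3 and part of the gene's 5′ region is missing. CLL is given in the labels as constant light of about 50 µmol of photons per square metre and second, against about 80 for LD, so a CLL plant had neither a dark period nor the LD intensity. Plants were 4 weeks old, and each library holds leaves pooled from at least 3 plants, so differences between single plants are not seen. In such bulk leaf samples, fewer cells of a type and less RNA per cell cannot be told apart. With 1 allele, effects of *RTNLB16* and of other changes in the line cannot be told apart either.

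Reticulon-like proteins (RTNLBs) are membrane proteins that bend the endoplasmic reticulum (ER) into tubules. In Arabidopsis leaves, salicylic acid (SA) is made from isochorismate, which is formed in the chloroplast. SA is inactivated by hydroxylation and by glucosylation, and switches on the *PATHOGENESIS-RELATED* (*PR*) genes, whose products are secreted through the ER. A separate set of enzymes handles reactive and foreign compounds in steps, by oxidation or reduction (cytochrome P450s, reductases), by conjugation to sugar or glutathione (UDP-glycosyltransferases, glutathione transferases) and by export (MATE and ABC transporters). TGA-type transcription factors act on both sets, and WRKY factors on defence genes.

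The 6 libraries held 28313609 to 44747661 reads assigned to genes. Levels below are normalized counts, that is, gene counts divided by 1 size factor per library. Libraries 68 and 69 were nearly the same library. Over genes with enough reads, the chi-square per degree of freedom between them was 1.807, whereas it was 26.2 to 153 in the 11 other pairs of libraries within a group. They were therefore counted as 1 sample, so the test had 3 Col-0 and 2 *rtnlb16-1* samples, and all 6 values are given. The spread behind the p-values was estimated over all 4 groups, LD included, and measures only differences between these libraries. Genes were tested with limma on log2(normalized count + 1), a scale that understates the change of low genes, and those past a log2 fold change of 1 in either direction with a Benjamini-Hochberg adjusted p below 0.01 are called differentially expressed genes (DEGs). Of 30388 genes tested, 175 (0.576%) were DEGs higher in *rtnlb16-1* and 84 (0.276%) were DEGs lower, 0.852% in all. At an adjusted p below 0.05, whatever the fold, 406 (1.34%) were higher and 257 (0.846%) lower.

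The 2 directions differed in kind. The higher DEGs had a median log2 fold change of 3.03, and 43 of the 175 were listed at 0 in every Col-0 library. The lower DEGs had a median of -2.66, and none of the 84 was at 0 in every *rtnlb16-1* library. Both group means were under 50 normalized counts in 56 of the higher and 5 of the lower DEGs. The log2 fold change of all genes tested had a median of 0.05, and it was 0.06 with TMM scaling and 0.07 with upper-quartile scaling. Library 70 lay farther from Col-0 than the mean of 68 and 69 in 152 of the 175 higher and 72 of the 84 lower DEGs. Fitted on the CLL groups alone, 89 genes were higher and 105 lower DEGs, 129 of them shared with the 259. The counts also depended on single libraries. They were 73 higher and 11 lower DEGs without library 65, 96 and 9 without 66, 113 and 38 without 67, 237 and 28 without 70, and 379 and 52 without 68 and 69 together. Of the 259 DEGs, 45 higher and 6 lower ones were called in each of the 7 fits that leave out a library or the pair 68 and 69, here called the leave-out fits. edgeR on the recovered reads called 548 (1.8%) higher and 473 (1.56%) lower genes, DESeq2 370 (1.72% of those with an adjusted p) and 431 (2%), and 212 of the 259 DEGs were called by all 3 tools.

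**Figure D1:**
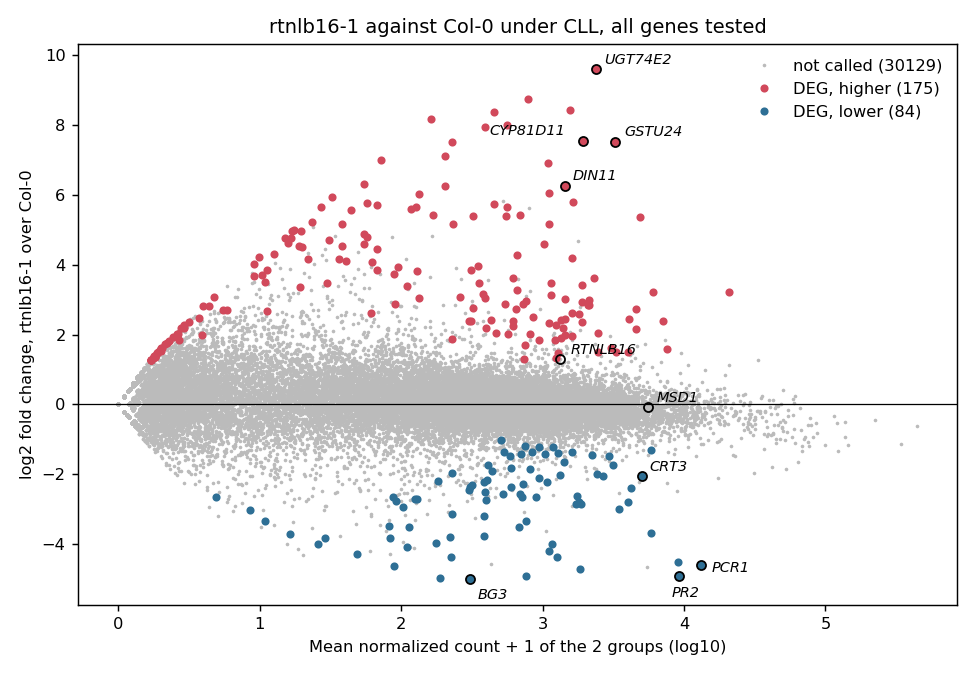
Mean level of the 2 groups (normalized count + 1, log10, x axis) against the log2 fold change of *rtnlb16-1* over Col-0 under CLL (y axis) for the 30388 genes tested, 1 point a gene. The 175 higher DEGs (red) reach a log2 fold change of 9.58 and the 84 lower DEGs (blue) -5.00.

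*RTNLB16* (AT3G10915) lies on chromosome 3 of the TAIR10.1 annotation, from 3415933 to 3417809 on the minus strand. Its normalized counts were 954, 709 and 640 in Col-0 and 2207, 2252 and 1543 in *rtnlb16-1*. Every *rtnlb16-1* library was above every Col-0 library. The log2 fold change was 1.29 (SE 0.27), with an adjusted p of 0.0318, which passed 0.05 but not the limit for a DEG. It was 1.03 to 1.56 in the leave-out fits, with adjusted p from 0.0454 to 0.236, and edgeR gave an adjusted p of 0.00016. An exact two-sided permutation test gave p = 0.2 for 3 samples against 2, the smallest that this design allows. The counts per gene do not separate the transcript models, so they do not show which of them the line makes.

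The neighbour on the far side of *RTNLB16* from *MSD1* had a larger log2 fold change than *RTNLB16* itself. AT3G10910, a gene for a RING/U-box protein on the minus strand from 3412911 to 3414019, is separated from *RTNLB16* by 1913 bases. It had 22.5, 32 and 27.7 normalized counts in Col-0 and 164, 178 and 307 in *rtnlb16-1*. The log2 fold change was 3.03 (SE 0.33, adjusted p = 0.00092), and the call held in all leave-out fits, where the adjusted p was 0.000395 to 0.00957. *MSD1*, the gene of the mitochondrial manganese superoxide dismutase, lies from 3417940 to 3419892 on the plus strand. It had 5083, 6258 and 5811 in Col-0 and 5491, 5664 and 5157 in *rtnlb16-1*, so the groups overlapped. Its log2 fold change was -0.09 (SE 0.24, adjusted p = 0.914) and -0.17 to -0.02 in the leave-out fits.

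Beyond these genes the surroundings held few changes. Of the 63 other genes within 100 kb of *RTNLB16*, 2 were DEGs, 28 had a positive and 34 a negative log2 fold change, and the median was -0.08. The second DEG was *RLP34*, a receptor-like protein gene 32686 bases away, lower by -2.62 on the log2 scale. Its call was lost without library 65, 66 or 70 (adjusted p at most 0.0252). Across the 5 chromosomes, 0.763% to 0.941% of the genes tested were DEGs, and chromosome 3 had 0.786%.

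**Figure D2:**
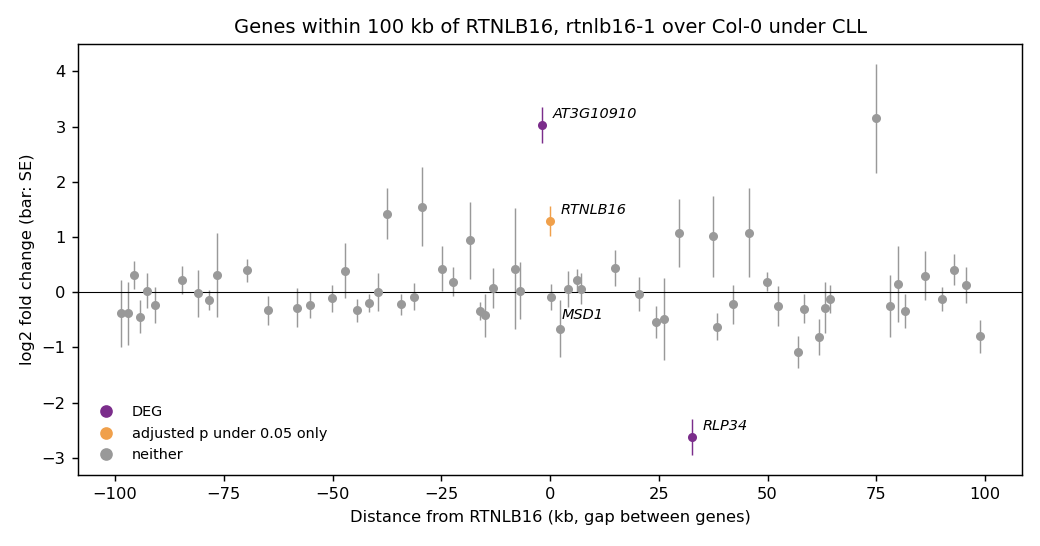
Log2 fold change of *rtnlb16-1* over Col-0 under CLL (y axis, bars are SE) against the distance from *RTNLB16* in kb (x axis), for the 64 genes with values within 100 kb. AT3G10910 at 3.03 and *RLP34* at -2.62 are the 2 DEGs, *RTNLB16* stands at 1.29 and *MSD1* at -0.09.

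The genes that rose most had low counts in Col-0 leaves, which a ranking by fold change favours. Their Col-0 means reached 65.1 normalized counts, in *AKR4C9*. The 20 largest higher DEGs together took 0.000521% to 0.00156% of all normalized counts in the Col-0 libraries and 0.0995% to 0.204% in the *rtnlb16-1* libraries. The first was *UGT74E2*, a glucosyltransferase of the auxin precursor indole-3-butyric acid, with 2.89, 28.3 and 0.924 normalized counts in Col-0 and 3434, 3606 and 6065 in *rtnlb16-1*. Its log2 fold change was 9.58 (SE 0.85, adjusted p = 0.000241). *UGT73B4*, a glycosyltransferase of phenolic and foreign compounds, had 0.577, 6.39 and 2.77 in Col-0 and 1191, 1117 and 1995 in *rtnlb16-1* (log2 fold change 8.75, SE 0.61, adjusted p = 4.86e-05). *UGT73C1* was at 2.31, 8.22 and 0 against 607, 627 and 930, with an adjusted p of 0.000426 that rose to at most 0.0114 without library 65 or 70, where the call was lost.

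Glutathione transferases of the tau class, which conjugate electrophilic compounds to glutathione, were also among the 20. *GSTU24* had 19.6, 69.4 and 26.8 normalized counts in Col-0 and 4862, 4949 and 8049 in *rtnlb16-1*, a log2 fold change of 7.52 (SE 0.54, adjusted p = 4.86e-05). Its neighbour *GSTU25* had 0, 5.48 and 1.85 against 649, 673 and 1153 (log2 fold change 8.37, SE 0.83, adjusted p = 0.000409). Both calls held in all leave-out fits.

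Of the 3 genes that the annotation names DTX, of the MATE efflux family, 1 was a DEG, 1 had a negative log2 fold change and the median was 0.52. MATE and sucrose transporter genes were among the 20 largest. AT2G04050, which encodes a MATE efflux protein, had 10.4, 8.22 and 4.62 normalized counts in Col-0 and 1867, 1995 and 4339 in *rtnlb16-1* (log2 fold change 8.43, SE 0.49, adjusted p = 2.09e-05). The MATE gene beside it, *DTX1*, had 40.4, 33.8 and 18.5 against 1273, 1370 and 3017 (log2 fold change 6.04, SE 0.52, adjusted p = 0.000177). *SUC7*, of the sucrose-proton symporter family, had 2.89, 7.3 and 0.924 against 634, 687 and 1550. The calls of these 3 genes held in all leave-out fits. For *SUC7*, 17.8% of its 31-base words occur elsewhere in the genome, so reads of these stretches may be left uncounted or misassigned.

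A pair of AAA-type ATPase genes of unknown function showed the same contrast. AT2G18190 was at 0 in all 3 Col-0 libraries and at 176, 169 and 469 in *rtnlb16-1*, at least 133-fold higher when 3 reads per Col-0 library are taken as the limit. AT2G18193 had 15, 21 and 13.9 normalized counts in Col-0 and 1527, 1524 and 2798 in *rtnlb16-1*, and its adjusted p of 1.5e-05 was the smallest among the 40 largest DEGs. By the same limit AT1G64795, of unknown function, was at least 58.7-fold higher and AT1G60740, a thioredoxin superfamily gene, at least 26.1-fold higher. The call of AT1G64795 was lost without library 65 (adjusted p 0.0114) and that of AT1G60740 without 65, 66, 67 or 70 (adjusted p at most 0.0165).

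Oxidising and reducing enzymes were also among the 20. *CYP81D11*, a cytochrome P450 known to respond to foreign compounds, had 8.08, 93.1 and 6.47 normalized counts in Col-0 and 2239, 2144 and 5454 in *rtnlb16-1*. Library 66 was the highest of Col-0, and the log2 fold change of 7.54 (SE 1.21, adjusted p = 0.00767) lost its call in every leave-out fit, with adjusted p from 0.0154 to 0.157. *AKR4C9*, an aldo-keto reductase of reactive carbonyls, had 36.9, 127 and 31.4 against 2036, 2123 and 4303, and kept its call in all of them. *CYP89A6* had 2.89, 7.3 and 2.77 against 248, 264 and 550 and kept it too, with 29.4% of its words found elsewhere. AT5G22430, a gene of the extensin and pollen Ole e 1 family, was the only one of the 20 in which library 70 was not the highest (0.577, 0.913 and 10.2 against 409, 428 and 103). Its call was lost without library 65, 66, 68 or 70 or without the pair (adjusted p at most 0.0641). In all, 14 of the 20 kept their calls in every leave-out fit, and all 20 were also called by edgeR and DESeq2.

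**Figure D3:**
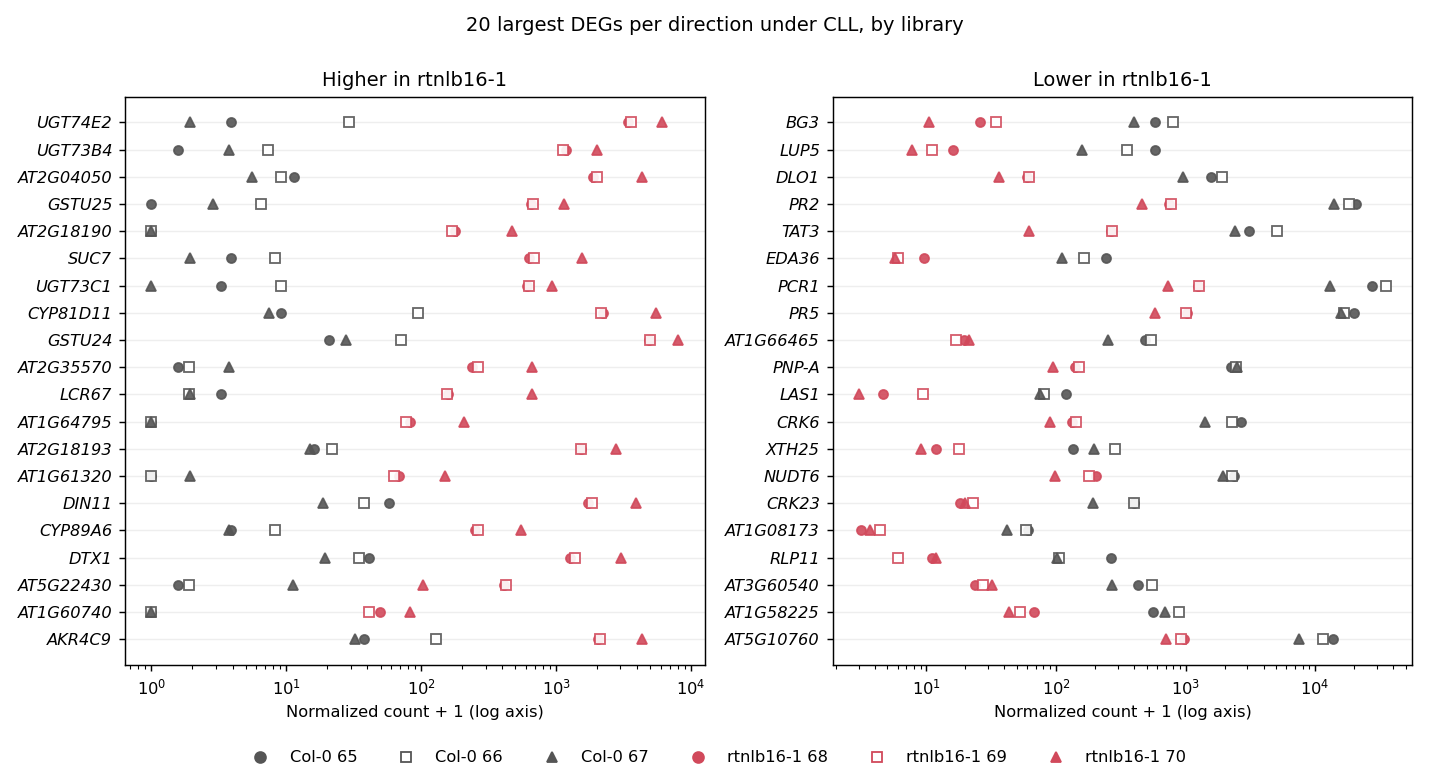
Normalized count + 1 (log axis) in each of the 6 CLL libraries for the 20 largest DEGs higher (left) and lower (right) in *rtnlb16-1*, with grey for Col-0 and red for *rtnlb16-1*. The groups do not overlap in any of the 40 genes, which the rule for naming them required, and library 70 (red triangle) is the highest in 19 of the 20 genes on the left.

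Of the higher DEGs, 24 stood beside another higher DEG on the chromosome, in 13 adjacent pairs. The pairs were mostly tandem copies of 1 family, *GSTU24* with *GSTU25*, *OPR1* with *OPR2*, *UGT73B5* with *UGT73B4*, *UGT73C1* with *UGT73C2*, *UGT73B2* with *UGT73B1*, and *DTX1* with AT2G04050. On chromosome 5, AT5G16960, *AER* (the alkenal reductase) and AT5G16980 stood in a row, with log2 fold changes of 4.60, 2.43 and 5.42. Neighbours could differ in the size of the change. The mean of *UGT73B4* went from 3.25 normalized counts in Col-0 to 1575 in *rtnlb16-1*, and that of *UGT73B5* from 76.9 to 1952. In the annotation the whole of *UGT73B4* (6761635 to 6763500) lies within *UGT73B5* (6758430 to 6763501) on the same strand. *OPR1*, which ends at 28778837, overlaps *OPR2*, which starts at 28778622. Reads that such an overlap made ambiguous were not counted, so how far the change differs within these pairs is uncertain. Reads of near copies can also be left uncounted or misassigned, since 10.5% of the 31-base words of *UGT73B4* and 22.1% of those of *AER* recur in the genome. Of the lower DEGs, 4 stood in 2 adjacent pairs, *PR2* with *BG1* and *CRK6* with *CRK7*.

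As a group, the enzymes of the response to foreign compounds and oxylipins moved one way. Of the 25 genes of this list tested, 17 were DEGs, all higher, and 21 passed an adjusted p of 0.05, all higher, with a median log2 fold change of 3.11. Like all lists here, it was chosen with earlier results of these data known, so its direction is not independent evidence. Its members took 0.068% to 0.084% of all normalized counts in Col-0 and 0.289% to 0.489% in *rtnlb16-1*. DEGs fell to 9 without library 65, 13 without 66, 10 without 67, 10 without 70 and 15 without 68, 69 or both, and edgeR called 23 and DESeq2 21.

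Beside the genes above, *OPR1*, an oxophytodienoate reductase, had 919, 1399 and 1263 normalized counts in Col-0 and 6323, 6284 and 9597 in *rtnlb16-1* (log2 fold change 2.73, SE 0.26, adjusted p = 0.000343). *NIT4*, which encodes a nitrilase that removes the cyanide product β-cyanoalanine, had 244, 326 and 345 against 1866, 1797 and 3272 (log2 fold change 3.02, SE 0.30, adjusted p = 0.000376). *CYP710A1*, a sterol C22-desaturase, had 12.7, 21.9 and 10.2 against 494, 544 and 1262. Calls of *OPR1* and *NIT4* held in all leave-out fits, and that of *CYP710A1* was lost without 65, 67 or 70 (adjusted p at most 0.0174). The NAC transcription factor genes *ANAC032* and *ANAC102* were higher by 2.43 and 2.62 on the log2 scale. The first lost its call without 65 or 67 (adjusted p at most 0.0173) and the second in every leave-out fit (at most 0.0741). *ABCG40*, an ABC transporter known for abscisic acid uptake, had 227, 289 and 161 against 1384, 1345 and 2749, a call lost without 65, 66, 67 or 70 (adjusted p at most 0.0181).

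The wider families behaved unevenly. Of 59 UDP-glycosyltransferases, 11 were DEGs, all higher, and the family's median log2 fold change was 0.35. Their number fell to 6 without library 65, 8 without 66 or 70 and 9 without 67. *UGT73C5*, which glucosylates brassinosteroids, had 217, 396 and 369 normalized counts in Col-0 and 2693, 2782 and 4234 in *rtnlb16-1*. *UGT84A3*, of a group that makes phenolic glucose esters, had 365, 546 and 405 against 1765, 1805 and 3121. The call of *UGT84A3* held in all leave-out fits and that of *UGT73C5* was lost without 65 or 70 (adjusted p at most 0.0124). Of 41 tau and phi glutathione transferases, 6 were DEGs, all of the tau class and higher. They were *GSTU24*, *GSTU25*, *GSTU2*, *GSTU7*, *GSTU8* and *GSTU22*, and the family's median was 0.30. Without library 65 or 67 the number was 2, without 66 or 70 it was 4, without 68 it was 8, and edgeR called 12.

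The promoters of the higher genes were searched for TGACG on either strand, the core to which TGA factors bind, from 250 bases before to 50 after the annotated start. TGACG was found in 22.9% of all promoters, in 29.1% of the promoters of the 175 higher DEGs, in 15 of 25 (60%) on the response list and in 9 of the 20 largest. It was also found in 8 of the 20 largest lower DEGs, in 23.7% of the UDP-glycosyltransferases and in 2 of 16 CYP81 genes (12.5%). Among lists with no higher DEG, TGACG stood in 12 of 21 central clock genes (57.1%), 12 of 24 ER folding genes (50%) and 3 of 24 jasmonate genes (12.5%). A high share was thus not particular to the response list. A match is a description and not evidence of binding. A window of 30 bases is shown for 6 of the 9 found among the 20 largest higher DEGs, so that the flanks can be compared. The windows come from the TAIR10.1 sequence, 5′ to 3′ on the strand of the gene, with TGACG or its complement CGTCA in capitals.
*UGT73B4* (chr2:6761500-6761529, plus strand): aaaagtaaaataTGACGtatgcaaacacgt
*GSTU25* (chr1:5871925-5871954, plus strand): ctaaataatctcTGACGacttttaaactaa
*GSTU24* (chr1:5869362-5869391, plus strand): tccaaagcatgcTGACGcaggcagtggcct
*AKR4C9* (chr2:15834715-15834744, plus strand): atgatcaatatcTGACGtgacaatatacta
AT2G04050 (chr2:1339510-1339539, minus strand): gaaactatacaaCGTCAttgcgaaaaacta
AT2G18193 (chr2:7919432-7919461, minus strand): cgtgtacacggaCGTCAagtaatttccttg
The capitals stand 169 bases before the start in *GSTU24*, 123 in *UGT73B4*, 87 in *GSTU25* and 39 in *AKR4C9*. The *UGT73B4* window lies inside the annotated *UGT73B5* gene on the same strand, so it is not intergenic sequence. The tandem copies *GSTU24* and *GSTU25* each hold the core, at different distances and with different flanks.

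Several genes rose under CLL but differed in their LD value. *DIN11*, a dark-inducible 2-oxoglutarate-dependent oxygenase gene, had 57.1, 36.5 and 17.6 normalized counts in Col-0 and 1722, 1841 and 3900 in *rtnlb16-1* under CLL (log2 fold change 6.26, SE 0.56, adjusted p = 0.000241). Its call held in all leave-out fits, and under LD the log2 fold change was 0.00 (interaction adjusted p = 0.00364). It was the only DEG among 18 dark and starvation induced genes. *LCR67*, a defensin gene, had 2.31, 0.913 and 0.924 against 156, 154 and 657 under CLL. Its log2 fold change was 7.12 under CLL and 1.01 under LD (interaction adjusted p = 0.0348), and the CLL call was lost without library 65, 66, 67 or 70 (adjusted p at most 0.0248). The other way round, *UGT73B2*, a flavonoid glucosyltransferase, rose by 2.85 under CLL and 5.51 under LD (interaction adjusted p = 0.00847). Of the 259 DEGs, 10 passed an interaction adjusted p of 0.01, all of them higher DEGs, against 0.217% of all genes tested. The CLL difference that defines a DEG is itself part of the interaction term. DEGs are therefore favoured for passing it, and the excess over all genes is not an independent result.

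Single stress genes of other lists also rose. *ELIP2*, an early light-induced chloroplast protein gene, had 102, 60.3 and 80.4 normalized counts in Col-0 and 400, 444 and 693 in *rtnlb16-1*, a log2 fold change of 2.76 (SE 0.46, adjusted p = 0.00963) that lost its call in every leave-out fit (adjusted p at most 0.175). Of the 11 genes of its list, light stress and xanthophyll cycle, 3 had a positive and 8 a negative log2 fold change, with a median of -0.32. *HSP70*, a cytosolic heat shock chaperone gene, had 179, 279 and 184 against 816, 855 and 1198 (log2 fold change 2.25, SE 0.26, adjusted p = 0.00131), lost without 65 or 67 (adjusted p at most 0.0127). The mitochondrial stress factor gene *ANAC013* passed only 0.05, with a log2 fold change of 1.21 (adjusted p = 0.0196). The alternative oxidase genes *AOX1A* (1257, 1755 and 1289 against 3122, 3051 and 4431) and *AOX1D* (41, 37.4 and 30.5 against 282, 267 and 714) did not overlap between groups but had adjusted p of 0.0663 and 0.0635 with limma. edgeR and DESeq2 called *AOX1A* and *AOX1D* higher. *ANAC013*, *AOX1A* and *AOX1D* belong to a list of 18 mitochondrial and chloroplast retrograde genes. Of the 18, 7 had a positive and 11 a negative log2 fold change, with a median of -0.20. At an unadjusted p under 0.05, 3 of them were higher and 4 lower. Libraries did not overlap in 15.2% of all genes tested with *rtnlb16-1* higher and in 16.9% with Col-0 higher.

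The genes that fell most included defence genes with high counts in Col-0. The 20 largest lower DEGs took 0.225% to 0.378% of all normalized counts in Col-0 and 0.0132% to 0.0212% in *rtnlb16-1*. *PR2*, a β-1,3-glucanase gene and a classical readout of SA, had 20836, 18369 and 13934 normalized counts in Col-0 and 739, 766 and 457 in *rtnlb16-1* (log2 fold change -4.89, SE 0.40, adjusted p = 0.00013). *PR5*, a thaumatin-like protein gene, had 20047, 16620 and 15731 against 1023, 1000 and 580 (log2 fold change -4.50, SE 0.32, adjusted p = 4.86e-05). AT5G10760, an aspartyl protease gene, had 13666, 11582 and 7493 against 979, 928 and 704 (log2 fold change -3.69, SE 0.30, adjusted p = 0.000114). These 3 genes, with *CRK6* and *NUDT6*, were the 5 of the 20 whose calls held in every leave-out fit, and all 20 were called by edgeR and DESeq2.

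The other large falls were in genes whose calls turned on single libraries. *BG3*, a further β-1,3-glucanase gene, had 581, 800 and 398 normalized counts in Col-0 and 25.1, 33.7 and 9.44 in *rtnlb16-1*, the largest fall at -5.00 on the log2 scale (SE 0.57, adjusted p = 0.00106), lost without 65 or 66 (adjusted p at most 0.0168). *TAT3*, a jasmonate-responsive tyrosine aminotransferase gene, had 3086, 5076 and 2389 against 263, 268 and 60.7, lost without 65, 66, 67 or 70 (at most 0.035). *PCR1*, of a family of cysteine-rich membrane proteins linked to cadmium resistance, had 27281, 35267 and 13062 against 1255, 1265 and 727, lost in every leave-out fit (at most 0.144).

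Genes of triterpene synthesis and of other enzymes were among them too. *LUP5*, a terpenoid cyclase gene, had 578, 352 and 157 normalized counts in Col-0 and 15.1, 10.1 and 6.75 in *rtnlb16-1* (log2 fold change -4.96). *LAS1*, the lanosterol synthase gene, had 118, 80.4 and 73.9 against 3.59, 8.41 and 2.02 (log2 fold change -4.29). The *LUP5* call was lost without 65, 66 or 70 (adjusted p at most 0.0161) and that of *LAS1* without any 1 library but 69 and without the pair (at most 0.0532). *EDA36*, a pyridoxal phosphate-dependent transferase gene, had 242, 162 and 111 against 8.6, 5.05 and 4.72. *XTH25*, a cell wall xyloglucan enzyme gene, had 135, 286 and 196 against 10.8, 16.8 and 8.1. Their calls were lost without 65, 66, 67, 70 or the pair for *EDA36* (adjusted p at most 0.0292) and in every leave-out fit for *XTH25* (at most 0.0925).

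SA synthesis and turnover genes did not move together. Of 14 tested, 3 were lower and 1 was a higher DEG, with a median log2 fold change of -0.71. *ICS1*, the isochorismate synthase that starts the pathway, had 1853, 1390 and 1280 normalized counts in Col-0 and 536, 553 and 578 in *rtnlb16-1* (log2 fold change -1.41, SE 0.22, adjusted p = 0.00641). The SA hydroxylase genes fell further. *DMR6* had 7500, 7631 and 5760 against 1158, 1156 and 850 (log2 fold change -2.80, SE 0.29, adjusted p = 0.000524). *DLO1* had 1565, 1895 and 958 against 58.8, 61.4 and 35.1 (log2 fold change -4.92, SE 0.73, adjusted p = 0.00526). *UGT74F2*, which glucosylates SA, rose from 191, 523 and 367 to 3016, 2843 and 5614 (log2 fold change 3.61, SE 0.46, adjusted p = 0.00195). *EDS5*, the transporter that exports the SA precursor from the chloroplast, fell by 1.24 and *UGT76B1* rose by 2.63 on the log2 scale at an adjusted p under 0.05 only. None of the 4 DEGs held in all leave-out fits. Lower DEGs were 0 without 65 or 66, 1 without 67, 70 or the pair and 2 without 68 or 69, *UGT74F2* was lost without 65, 66, 67, 70 or the pair (adjusted p at most 0.0433), and edgeR called 2 higher and 5 lower.

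SA regulators and outputs were lower wherever they passed the test. Of 19 regulators, 3 were DEGs, all lower, 17 had a negative log2 fold change (43.9% of all genes tested did), and the median was -1.12. *NUDT6*, a nudix hydrolase gene, had 2345, 2273 and 1942 normalized counts in Col-0 and 204, 179 and 97.1 in *rtnlb16-1* (log2 fold change -3.99, SE 0.32, adjusted p = 0.000116). *SARD1*, a transcription factor gene acting on *ICS1*, had 1736, 2039 and 1514 against 510, 450 and 293, lost without 65 (adjusted p 0.0114). *PAD4*, the lipase-like partner of EDS1, had 2079, 2347 and 2042 against 732, 713 and 641, lost in every leave-out fit (at most 0.0644). Regulators called were 1 without 65 and 2 in each other leave-out fit, and edgeR called 10 and DESeq2 5.

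Of 12 SA output genes, *PR2*, *PR5* and *PNP-A* were lower DEGs and 6 passed 0.05, all lower, with a median of -2.24. *PNP-A*, the natriuretic peptide gene, had 2256, 2442 and 2495 normalized counts in Col-0 and 138, 149 and 93.8 in *rtnlb16-1*, lost without 65, 66, 67, 70 or the pair (adjusted p at most 0.0318). *PR1* had 8283, 12351 and 10594 against 713, 682 and 239 (log2 fold change -4.65, SE 0.97), and passed 0.05 but not 0.01 (adjusted p = 0.0315). edgeR and DESeq2 each called 7 of the 12.

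Some receptor genes of the cell surface were lower DEGs. Of 43 cysteine-rich receptor-like kinases (CRKs), 5 were DEGs and 15 passed 0.05, all lower, and the median was -0.70. *CRK6* had 2657, 2291 and 1402 normalized counts in Col-0 and 133, 141 and 88.4 in *rtnlb16-1* (log2 fold change -4.20, SE 0.40, adjusted p = 0.000343). Of its 31-base words 36.3% recur elsewhere, so its count may miss reads. *CRK4* had 4320, 3451 and 2093 against 590, 588 and 325, lost without 65, 66 or 70 (adjusted p at most 0.0247). The CRK count was 1 without 65 or 66, 3 without 67 or the pair and 4 without 70, and edgeR and DESeq2 each called 17 lower. Of 52 receptor-like proteins, which lack a kinase domain, 6 were DEGs, all lower, but 21 of the 52 had a positive log2 fold change and the median was -0.24. *RLP23*, the receptor of microbial necrosis-inducing peptides, had 3724, 3325 and 2011 against 424, 427 and 380 (log2 fold change -2.86, SE 0.26, adjusted p = 0.000256) and was the one that held in all leave-out fits. Their count was 1 without 65, 66 or 70, 3 without 68 or 69 and 4 without 67 or the pair. Of 14 wall-associated kinases none was a DEG with limma or lower with edgeR or DESeq2, which each called 1 higher. At an unadjusted p under 0.05, 3 were higher and 4 lower, and 7 had a positive and 7 a negative log2 fold change.

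ER folding and unfolded protein response genes were negative in 23 of 24, with a median log2 fold change of -0.78, and 3 were lower DEGs. The log2 fold change was negative in 43.9% of all genes tested. *CRT3*, the calreticulin that folds surface receptors, had 8007, 9194 and 7314 normalized counts in Col-0 and 2302, 2297 and 1659 in *rtnlb16-1* (log2 fold change -2.06, SE 0.26, adjusted p = 0.0018). *TIN1*, a gene named for its induction by the ER stress agent tunicamycin, had 491, 438 and 306 against 50.9, 48 and 41.8. *UTR1*, a nucleotide sugar transporter gene of the ER, had 1016, 865 and 713 against 334, 286 and 304. *BIP3*, *ERDJ3A*, *ERDJ3B* and *ERO1*, which encode chaperones, co-chaperones and an oxidase of disulfide formation, passed 0.05 only, with log2 fold changes of -3.25, -2.20, -1.25 and -1.74. No member was called without 65, 66, 67 or 70 and 1 without the pair, while edgeR and DESeq2 each called 8. Under LD the median of the same 24 genes was 0.15, and *TIN1* had a log2 fold change of 0.14 there against -3.12 under CLL (interaction adjusted p = 0.0375).

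The promoters of the lower genes were searched for TTGACC or TTGACT on either strand, the W-box forms bound by WRKY factors. They share TGAC with the core above but end in another base, so the same TGAC cannot count for both. A match was found in 31.6% of all promoters, in 48 of the 84 lower DEGs (57.1%), in 42.3% of the higher DEGs and in 27 of 43 CRKs (62.8%). Of the other lists with lower DEGs, it stood in 30 of 52 receptor-like proteins (57.7%), 8 of 24 jasmonate genes (33.3%), 2 of 12 SA output genes (16.7%), 5 of 19 SA regulators (26.3%), 4 of 14 SA synthesis and turnover genes (28.6%) and 6 of 24 ER folding genes (25%). Lists with no lower DEG varied as widely. A W-box match stood in 14 of 25 genes of the response list (56%), 9 of 14 wall-associated kinases (64.3%) and 3 of 21 central clock genes (14.3%). TGACG stood in 32.1% of the lower DEGs. The windows of 4 of the largest lower DEGs are shown as above, each with a single match in capitals. The *CRK6* window holds a further TTGACT, left in lower case.
*PR5* (chr1:28177492-28177521, plus strand): cagccatggccgAGTCAAaatgttaagatt
*NUDT6* (chr2:1543250-1543279, plus strand): aaacatttcggtTTGACTttagcaaaatcg
*CRK6* (chr4:12121283-12121312, plus strand): tactttgacttgTTGACTcttatagtcacc
*TAT3* (chr2:10585243-10585272, minus strand): ttgcgacgacccTTGACTttaaatccttta
The match in capitals lies 166 bases before the start in *PR5*, 74 in *CRK6*, 58 in *NUDT6* and 44 in *TAT3*. Of 71 WRKY genes themselves none was a DEG with limma. At an unadjusted p under 0.05, 11 were higher and 13 lower, edgeR called 6 and 10, and DESeq2 5 and 6. At an adjusted p under 0.05 *WRKY45* and *WRKY75* were higher and *WRKY30*, *WRKY41*, *WRKY53* and *WRKY58* lower. *WRKY41* was at low counts, with 10.4, 11.9 and 8.32 against 2.87, 2.52 and 1.35. Its adjusted p was 0.277 with edgeR and 0.406 with DESeq2. *WRKY30* had 95.8, 198 and 130 normalized counts in Col-0 and 18.6, 21 and 14.8 in *rtnlb16-1*, and *WRKY75* 20.8, 26.5 and 17.6 against 88.2, 105 and 198.

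Most photosynthesis genes had negative values but hardly passed the test one by one. All 20 nuclear light-harvesting antenna genes had a negative log2 fold change, with a median of -1.15, and 18 did not overlap between the groups. Of all genes tested, 43.9% had a negative log2 fold change and 16.9% did not overlap with Col-0 higher. The antenna genes took 6.06% to 7.68% of all normalized counts in Col-0 and 3.43% to 3.72% in *rtnlb16-1*. *LHCB1.4*, an antenna gene of photosystem II, had 42960, 50257 and 55706 against 8825, 9451 and 17379 (log2 fold change -1.97, SE 0.50, adjusted p = 0.0752). *LHCB2.3* alone passed 0.05, with 12482, 19144 and 22099 against 5874, 6130 and 6477 (log2 fold change -1.48, adjusted p = 0.0313). None was a DEG with limma, whereas 12 passed an unadjusted p of 0.05, edgeR called 7 and DESeq2 11. All 25 photosystem subunit genes were negative as well (median -0.87), and so were 14 of 15 chlorophyll synthesis genes (median -0.40), with no DEG with limma in either list. At an unadjusted p under 0.05, 10 photosystem genes and 3 chlorophyll synthesis genes were lower, and edgeR called 1 and 0 of them and DESeq2 2 and 0. The antenna genes hold near copies, and 36.2% of the 31-base words of *LHCB2.2* and 32.1% of those of *LHCB1.3* recur in the genome.

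**Figure D4:**
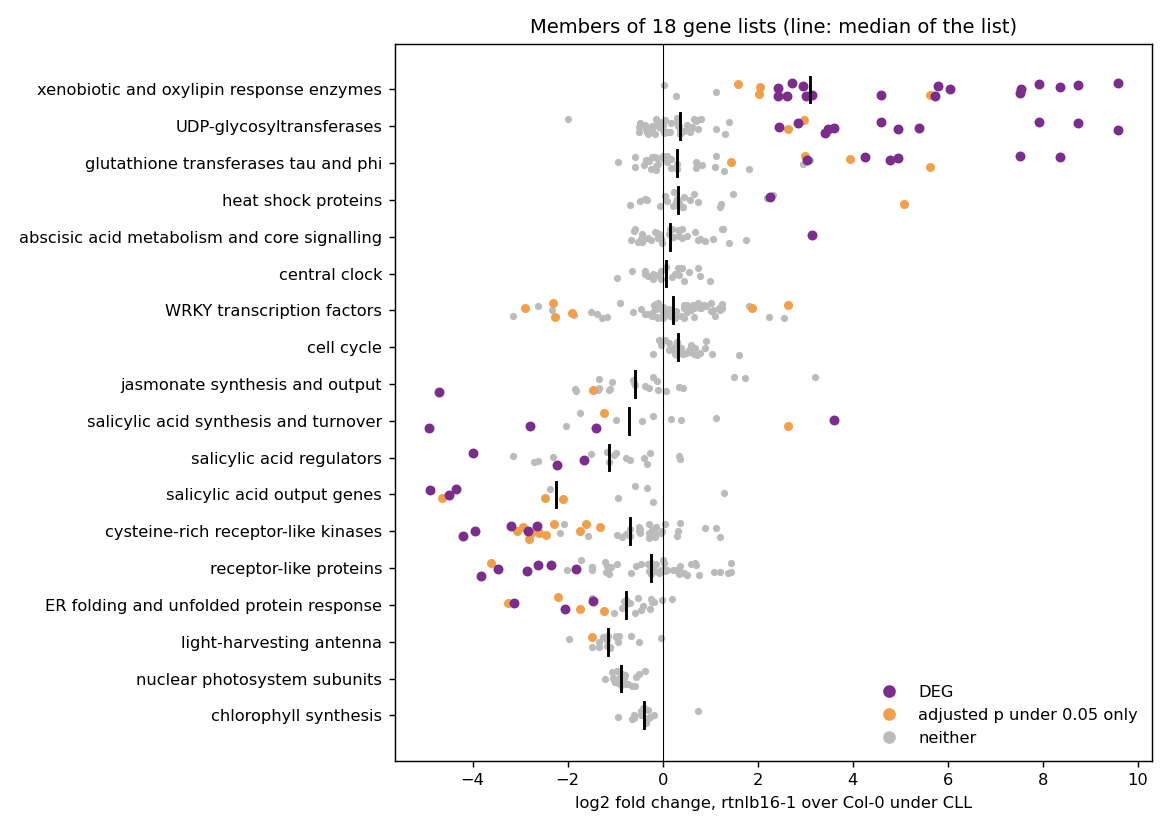
Log2 fold change of *rtnlb16-1* over Col-0 under CLL (x axis) for the members of 18 gene lists (y axis), 1 point a gene, with DEGs in purple, genes past an adjusted p of 0.05 only in orange, and the list median as a black line. The response list has its median at 3.11, the SA output list at -2.24 and the antenna list at -1.15.

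Markers of other tissues differed beside these groups. All 8 flower markers had a positive log2 fold change, as did 53.1% of all genes tested, and their median was 3.24. *SEP3*, a floral organ identity gene, was a DEG with 3.46, 3.65 and 0.924 normalized counts in Col-0 and 105, 95.1 and 36.4 in *rtnlb16-1*, lost without 65, 66, 67 or the pair (adjusted p at most 0.0483). Summed over the 8 genes the level was 38.3 to 75.8 in Col-0 and 275 to 539 in *rtnlb16-1*, with no marker at 0 in a whole group. The 10 shoot meristem markers were all positive (median 1.34) with none called by limma, 2 at an unadjusted p under 0.05, 1 called by edgeR and 0 by DESeq2. Their sum was 491, 33.8 and 299 in Col-0 and 550, 520 and 541 in *rtnlb16-1*, and library 66 was the lowest Col-0 library for 9 of the 10. The 34 cell cycle genes summed to 9830, 6129 and 8528 against 10214, 9997 and 9942, again with 66 lowest, in 28 of 34. The part of flower, meristem or dividing cells in the results above was not tested.

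Markers of the labelled tissue were at high counts. All 10 mesophyll markers were present in all 6 libraries, with a sum of 1753276 to 2154859 in Col-0 and 1070864 to 1339438 in *rtnlb16-1*, where each of the 10 had a negative log2 fold change (median -0.56). Guard cell markers summed to 794 to 1283 and 1468 to 1760, and phloem markers to 11970 to 13759 and 13071 to 14770. Root markers summed to 846 to 1001 and 764 to 859, of which *SCR*, also expressed in leaves, gave most, and 2 of the 6 were at 0 in all libraries. The 9 trichome and epidermis markers summed to 28836 to 32095 and 27845 to 30992. Of them 6 had a positive and 3 a negative log2 fold change, with a median of 0.18. Only *CER1*, a wax synthesis gene, passed 0.05, with 1926, 2463 and 2222 against 5138, 4950 and 4744 (log2 fold change 1.16, adjusted p = 0.0339). *TRY* and *KCS6* were lower without overlap, with log2 fold changes of -0.99 and -0.59. Of all genes tested, 16.9% did not overlap with Col-0 higher and 43.9% had a negative log2 fold change. The part of these cell types in the results was not tested.

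**Figure D5:**
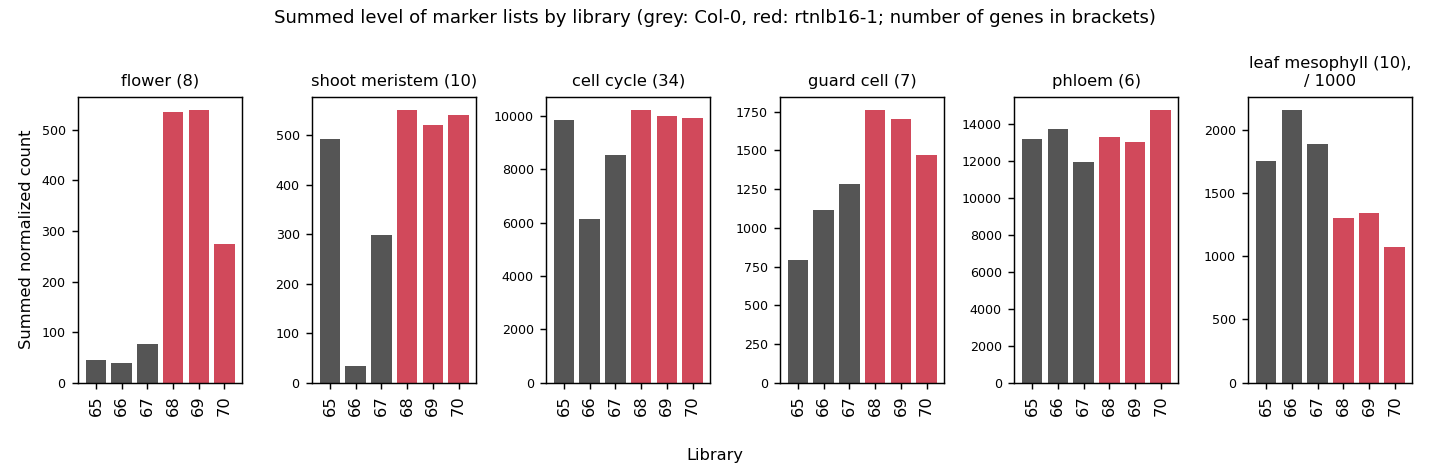
Summed normalized count (y axis, from 0, divided by 1000 for leaf mesophyll) of 6 gene lists in each CLL library (x axis), with Col-0 in grey and *rtnlb16-1* in red. Flower markers stand at 275 to 539 in *rtnlb16-1* and at most 75.8 in Col-0, and library 66 is lowest for shoot meristem and cell cycle genes. The sum of the mesophyll markers, though not each marker, is lower in each *rtnlb16-1* library than in any Col-0 library.

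Many pathways gave no DEG with limma. Among them were the lists for camalexin, glucosinolates, flavonoids, the central clock, shade, the cell cycle, Aux/IAA proteins, JAZ repressors, ethylene response factors and type-A response regulators, 10 lists with 213 genes tested. At an unadjusted p under 0.05, 15 of them were higher and 16 lower, edgeR called 4 higher and 0 lower, and DESeq2 1 and 1. *PAD3*, which completes camalexin, had 367, 691 and 361 normalized counts in Col-0 and 2648, 2541 and 3809 in *rtnlb16-1* with no overlap, and yet an adjusted p of 0.229 with limma (log2 fold change 2.80, SE 1.02). Its adjusted p was 1.68e-18 with edgeR and 0.0387 with DESeq2. Libraries did not overlap with *rtnlb16-1* higher in 15.2% of all genes tested. *PIF4*, a shade and temperature growth factor gene, had 734, 856 and 921 against 280, 289 and 549 (log2 fold change -1.08, adjusted p = 0.0781). None of the 5 other genes that the annotation names as RTNLB passed 0.05, and *RTNLB1* had 11175, 9143 and 8724 against 5953, 6396 and 6502 (adjusted p = 0.39).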

How the data were processed

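RNA from leaves of Col-0 and *rtnlb16-1* under CLL (6 libraries) and LD (6 libraries) had been sequenced. The deposited signal values are normalized counts. The authors used STAR to align reads to TAIR10, HTSeq to count the reads that fell on 1 gene without ambiguity, and DESeq2 to scale each library by its size factor. Whether reads were counted by strand is not given in the sources used here, and 53 of the 259 DEGs overlap another annotated gene. Reads that an overlap made ambiguous were not counted, so their values may be too low, and whether antisense reads add to them is unknown. Names and positions come from RefSeq's TAIR10.1 annotation, in which 37051 of 37336 gene IDs were found by locus tag.

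Within a relative tolerance of 1e-06, 100% of the values were whole reads times 1 factor per library, which gave back the reads (25954730 to 44747661 per library). Libraries 68 and 69 were merged as 1 sample. Genes above 0 in at least 1 library (30388) were fitted with limma 3.58.1 in R 4.3.3 on log2(value + 1), with 4 group means over all libraries, a variance trend and Benjamini-Hochberg adjustment over all genes. The interaction is the CLL minus the LD genotype difference. Libraries carry no replicate number shared between groups.

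The comparison, the 48 gene lists (500 entries by hand, of which 23 were dropped because the annotation names them otherwise, and families by name) and the tests were chosen with earlier results of these data known. Lists are described by counts and medians, with no set test. Genes named are *RTNLB16*, *MSD1*, *ACT2*, the 20 DEGs of largest absolute log2 fold change per direction with a mean of at least 50 in a group and no overlap between libraries, the DEGs of each list (or up to 3 of smallest p, or members that define it), and genes within 20 kb of *RTNLB16*. *UGT76B1*, *EDS5*, *PR1*, *BIP3*, *ERDJ3A*, *ERDJ3B*, *ERO1*, *WRKY45* and *WRKY58* were named outside this rule, after their values were seen, as members past 0.05. So were *BG1*, AT5G16960 and AT5G16980, as DEGs adjacent to another DEG. *ACT2* had a log2 fold change of -0.29 (adjusted p = 0.651).

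Alternatives were other pseudocounts (0.5 and 5), keeping genes with 10 or more in 3 libraries, scaling by TMM or upper quartiles, only the CLL groups, libraries 68 and 69 as 2 samples, other thresholds, and leaving out each library. The recovered reads were also tested with edgeR 4.0.16 and with DESeq2 1.42.0. Added after the data were seen were edgeR and DESeq2 with 68 and 69 as 2 samples and a fit without libraries 65 and 67. The pipeline was tested on simulated data. Python 3.11.15 made tables, motif counts and figures.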

Additional observations from a re-analysis of the deposited data

Results flagged for a closer look

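In 5 of the genes named by rule, the genotype difference under CLL differed from that under LD by the interaction term of the limma fit, at an adjusted p under 0.01. *WAK3*, which encodes a wall-associated kinase, had 1.11 on the log2 scale under CLL and -3.45 under LD, a difference of 4.56 (SE 0.52, adjusted p = 0.00263). *PRR5*, an evening clock gene, had 0.99 under CLL and 4.97 under LD, a difference of -3.98 (SE 0.46, adjusted p = 0.00285). *DIN11* had 6.26 under CLL and 0.00 under LD, a difference of 6.26 (SE 0.75, adjusted p = 0.00364). *UGT73B2* had 2.85 and 5.51, a difference of -2.66 (SE 0.37, adjusted p = 0.00847). *IAA14*, an auxin response repressor gene, had 0.70 and -1.80, a difference of 2.50 (SE 0.36, adjusted p = 0.00913). By themselves *WAK3*, *PRR5* and *IAA14* were not DEGs under CLL. Groups of 3 libraries are too small for a check for outlying samples.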

How the results depend on the processing

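Counts of calls moved with most choices. None of the 80 DEGs named turned direction under any of the 19 alternatives that give a new fit (3 others change only a threshold). The number that lost the call was 6 with a pseudocount of 0.5, 1 with 5, 18 with only the CLL groups, 53, 43, 38 and 42 without library 65, 66, 67 or 70, 17 and 14 without 68 or 69, 27 without both, 59 without 65 and 67, 1 with DESeq2 and 68 and 69 as 2 samples, and 0 under the other alternatives fitted. Without library 70 or without the pair, the lone *rtnlb16-1* sample is assumed to vary like the other groups.

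The 175 higher and 84 lower DEGs became 89 higher with only the CLL groups, 131 lower with the filter of at least 10 in 3 libraries, 216 lower with 68 and 69 as 2 samples, 395 and 243 at an adjusted p under 0.05, and 763 and 547 at an unadjusted p under 0.01. edgeR gave 548 and 473 and DESeq2 370 and 431. With 68 and 69 as 2 samples they gave 617 and 590, and 479 and 549. Leaving out 1 library or the pair gave 73 to 379 higher and 9 to 74 lower. The log2 fold change of *RTNLB16* passed the limit for a DEG with 68 and 69 as 2 samples (1.38), with edgeR (1.31) and with DESeq2 (1.29), and with 2 samples with edgeR (1.39) and DESeq2 (1.38). The cause of these shifts was not tested.

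Of the named genes that were not DEGs, *LSF2*, 0.06 in the main comparison, was -0.325 (without 68 and 69) to 0.44 (without 70) with a library left out, -0.179 without 65, and -0.215 without 65 and 67, and *MYB113* turned from -1.37 to 0.037 without 65 and 67. No paired analysis was possible because the groups share no replicate numbers in the labels.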
